A study of Mus musculus with 10 samples.

Results

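The interleukin-1 family genes described here are the antagonist Il1rn, the ligands Il1b, Il1a and Il33, and the receptor chains Il1r2 and Il1rap. They were chosen by gene symbol, as the probe sets that the platform table pairs with a single symbol on a list of 8. Probe sets were found for 6 of these 8 genes, 1 probe set each, out of 19938 genes on the array. Il1r1 and Il1rl1, the signalling receptors for interleukin-1 and for interleukin-33, were not analysed here. The choice was made with the comparison of exercise and non-exercise tumours already known, so the members' values in that comparison are a description, and no p-value is given for them.

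RNA from 10 melanoma tumours of male mice was hybridised to Affymetrix whole-transcript arrays, 1 array per tumour. There were 5 Exercise arrays (300, 301, 306, 309 and 310) and 5 non-Exercise arrays (326, 327, 329, 330 and 331), and the series title calls the exercise voluntary. The strain, the age of the animals, the melanoma line and the running schedule were not stated in the sources used here. The labels do not say that each number is a separate animal, so any p-value measures the spread between these tumours.

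Interleukin-1 alpha and beta are inflammatory cytokines that bind the same signalling receptor, which then recruits the accessory chain encoded by Il1rap. The antagonist encoded by Il1rn occupies that receptor without recruiting the accessory chain, and the decoy receptor encoded by Il1r2 binds ligand without signalling. Interleukin-1 beta is made mostly by activated myeloid cells and needs cleavage by caspase-1, while interleukin-1 alpha and interleukin-33 are held in the nucleus of stromal and barrier cells and act as alarmins when released. An array of RNA reads neither cleavage nor release.

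Melanocyte transcripts marked all tumours, with the 8 melanocytic markers between percentiles 95.4 and 99.9 of the mean level of all genes. None of these 8 passed the limma test between the groups (2 at an unadjusted p under 0.05, both lower in Exercise tumours). Without Exercise array 306 or 310 alone, or 306, 309 and 310 together, 1 of the 8 was lower. Array medians in the deposited table lay between 8.64 and 8.77, and the correlation across genes of any pair of arrays was 0.960 to 0.996. Hepatocyte transcripts stood out in Exercise arrays 306, 309 and 310. Of 11 measured hepatocyte markers, 1 passed as higher with all arrays, 10 without Exercise array 300 or 301, and none when any other single array or these 3 arrays were left out. The albumin gene Alb had log2 levels of 12.28 to 12.97 there and 6.84 to 9.22 elsewhere. The transthyretin gene Ttr had levels of 9.01 to 10.40 there and 7.07 to 7.44 elsewhere. Results are therefore also given without these 3 arrays, which are called the arrays with hepatocyte transcripts. That setting keeps only Exercise arrays 300 and 301 against all non-Exercise arrays. A call can therefore be lost there because fewer arrays are compared, and a call gained there rests on arrays 300 and 301.

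The genes for the antagonist and for both classical ligands lie on mouse chromosome 2, and the sequence before their annotated starts is printed. Any part of these sequences in the members' differences between the groups was not tested. Each line gives the 250 bases before a RefSeq start on the gene's strand in build GRCm38.p6. Il1rn has several annotated starts, of which the most upstream and a downstream one are printed, and its single probe set does not tell transcripts of these starts apart. Capitals mark a TATA box motif (TATAAA), the AP-1 motif (TGANTCA) and a C/EBP motif (TTNNGNAA), searched on both strands.
Il1rn, upstream start, chr2:24336610-24336859, + strand: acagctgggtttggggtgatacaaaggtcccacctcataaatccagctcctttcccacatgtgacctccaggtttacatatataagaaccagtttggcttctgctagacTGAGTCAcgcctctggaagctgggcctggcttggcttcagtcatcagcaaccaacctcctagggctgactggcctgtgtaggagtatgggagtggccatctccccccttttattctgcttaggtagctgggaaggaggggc
Il1rn, downstream start, chr2:24345041-24345290, + strand: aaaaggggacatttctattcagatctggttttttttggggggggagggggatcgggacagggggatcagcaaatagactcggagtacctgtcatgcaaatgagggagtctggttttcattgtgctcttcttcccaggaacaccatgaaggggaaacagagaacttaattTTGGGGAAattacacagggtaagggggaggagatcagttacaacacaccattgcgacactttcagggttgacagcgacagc
Il1b, chr2:129371140-129371389, - strand: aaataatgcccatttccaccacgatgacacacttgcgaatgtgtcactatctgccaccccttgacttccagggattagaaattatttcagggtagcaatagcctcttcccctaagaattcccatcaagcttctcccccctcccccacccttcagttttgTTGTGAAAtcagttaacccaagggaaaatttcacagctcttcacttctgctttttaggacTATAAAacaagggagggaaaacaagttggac
Il1a, chr2:129309973-129310222, - strand: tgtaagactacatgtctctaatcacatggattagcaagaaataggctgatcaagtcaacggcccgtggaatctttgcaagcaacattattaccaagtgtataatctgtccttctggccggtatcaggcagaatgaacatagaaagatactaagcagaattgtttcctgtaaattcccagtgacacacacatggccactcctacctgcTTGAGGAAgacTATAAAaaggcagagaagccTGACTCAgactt

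Both classical ligand genes had TATAAA close to the start, with its last base 26 bases before the start in Il1b and 27 in Il1a. Neither printed Il1rn window had it. Il33, whose windows are not printed, also had TATAAA, ending 24 bases before its downstream start. TATAAA was present in 4 of the 9 member windows and in 12.4% of all 32851 windows of this length in the table. The AP-1 motif stood in the upstream Il1rn window and in the Il1a window, against 6.75% of all windows. The C/EBP motif stood in 6 of the 9 member windows (36.8% of all windows), among them downstream Il1rn, Il1b and Il1a. In Il1a this last match contains GAGGAA, a core bound by PU.1 and other ETS factors, which 23.3% of all windows hold and no other of the 9 member windows held. The NF-kB consensus (3.90% of all windows) and the interferon-stimulated element (2.98%) were absent from all 9 windows. These are matches of letters and do not show binding.

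Il1rn, the gene of the interleukin-1 receptor antagonist, showed the largest difference of the 6 members. On the log2 scale its level was 11.14, 10.88, 10.39, 11.31 and 11.64 in Exercise arrays 300, 301, 306, 309 and 310, against 9.40, 9.13, 9.47, 8.83 and 9.83 in non-Exercise arrays 326, 327, 329, 330 and 331. The lowest Exercise array, 306, still lay 0.552 above the highest non-Exercise array, 331, so the groups did not overlap. The means were 11.07 ± 0.47 in Exercise and 9.33 ± 0.38 in non-Exercise tumours (SD, n = 5 each), a log2 change of 1.74 ± 0.21 (SE) or 3.33-fold. Leaving out the arrays with hepatocyte transcripts gave 1.68, and the change stayed between 1.59 and 1.91 when any 1 array was left out. These are levels in whole tumours, where more cells of a type and more RNA per cell cannot be told apart.

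Il1b, the myeloid agonist that the antagonist competes with, differed less. Its log2 level was 8.82, 9.20, 8.13, 8.34 and 9.14 in the Exercise arrays in the same order, against 7.45, 7.47, 8.06, 7.65 and 8.16 in the non-Exercise arrays. Exercise arrays 301 and 310 were the highest, and only array 306 lay within the non-Exercise range, 0.023 under array 331. The means were 8.73 ± 0.48 and 7.76 ± 0.33 in Exercise and non-Exercise tumours (SD, n = 5 each), a log2 change of 0.97 ± 0.21 (SE) or 1.96-fold. The change was 1.25 without the arrays with hepatocyte transcripts.

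Il1a, the alarmin form of interleukin-1, was dim, at percentile 7.39 of the mean level of all genes. Its log2 level was 7.20, 7.18, 7.30, 7.07 and 6.97 in the Exercise arrays, against 7.04, 7.05, 6.89, 6.76 and 6.90 in the non-Exercise arrays. The groups overlapped, with Exercise array 310 inside the non-Exercise range. The means were 7.14 ± 0.13 in Exercise and 6.93 ± 0.12 in non-Exercise tumours (SD, n = 5 each), a log2 change of 0.22 ± 0.09 (SE), and Il1a was the only member that did not pass the threshold of the fit across all genes.

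The antagonist and Il1b differed by unequal amounts. Within an array, the log2 level of Il1rn minus that of Il1b was 2.32, 1.67, 2.25, 2.96 and 2.50 in the Exercise arrays, against 1.95, 1.66, 1.41, 1.18 and 1.68 in the non-Exercise arrays. The level of this difference cannot be read, because probe sets of different genes do not share a scale. Il1rn lay at percentile 71.6 of the mean level of all genes and Il1b at 31.9. Whether probe sets at these levels respond alike to a change in RNA was not tested. The mean difference was 2.34 ± 0.47 in Exercise and 1.58 ± 0.29 in non-Exercise tumours (SD, n = 5 each), so that Il1rn gained 0.77 on Il1b. In 4 of 5 Exercise arrays this difference lay above all non-Exercise arrays, and array 301, where Il1b was highest, was the exception. Without the arrays with hepatocyte transcripts the changes lay closer together, at 1.68 for Il1rn and 1.25 for Il1b. Of Exercise arrays 300 and 301, which then remain, only array 300 had a difference above all non-Exercise arrays.

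Il33, the alarmin of stromal and endothelial nuclei, had the largest SD of the 6 members among Exercise tumours, while Il1rn had the wider range over all 10 arrays (2.81, against 2.63 for Il33). Its log2 level was 9.53, 10.33, 8.76, 9.77 and 10.85 in the Exercise arrays, against 8.21, 8.78, 8.67, 8.38 and 8.96 in the non-Exercise arrays. Arrays 310 and 301 were again the highest, and array 306 fell inside the non-Exercise range. The means were 9.85 ± 0.79 in Exercise and 8.60 ± 0.30 in non-Exercise tumours (SD, n = 5 each), a log2 change of 1.25 ± 0.29 (SE) or 2.37-fold. The SD among Exercise tumours was 2.62 times that among non-Exercise tumours. The change was 1.33 without Exercise arrays 306, 309 and 310 and between 1.0 and 1.52 without any 1 array. With robust eBayes it did not pass the threshold.

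Il1r2, the decoy receptor, is carried mainly by neutrophils and some macrophages. The gene was dim, at percentile 14.2 of the mean level of all genes. Its log2 level was 7.42, 7.78, 7.50, 7.66 and 8.46 in the Exercise arrays, against 7.35, 7.06, 7.16, 7.07 and 7.24 in the non-Exercise arrays. The groups did not overlap, but the margin between Exercise array 300 and non-Exercise array 326 was 0.077, and array 310 stood above the other Exercise arrays. The means were 7.76 ± 0.41 and 7.17 ± 0.12 in Exercise and non-Exercise tumours (SD, n = 5 each), a log2 change of 0.59 ± 0.16 (SE). It no longer passed the threshold without non-Exercise array 327 or 330 (0.56 in each case), or without Exercise arrays 306, 309 and 310 together (0.43).

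Il1rap, the accessory chain shared by the receptors for interleukin-1, interleukin-33 and interleukin-36, differed little but evenly. Its log2 level was 9.94, 9.96, 9.87, 9.88 and 9.81 in the Exercise arrays, against 9.55, 9.68, 9.71, 9.66 and 9.70 in the non-Exercise arrays. The groups did not overlap, by a margin of 0.101. The means were 9.89 ± 0.06 in Exercise and 9.66 ± 0.07 in non-Exercise tumours (SD, n = 5 each), a log2 change of 0.23 ± 0.06 (SE) or 1.18-fold. It did not pass without non-Exercise array 326 (0.20), nor when arrays were centred on their medians (0.18), and it passed without Exercise arrays 306, 309 and 310 (0.29).

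**Figure D1:**
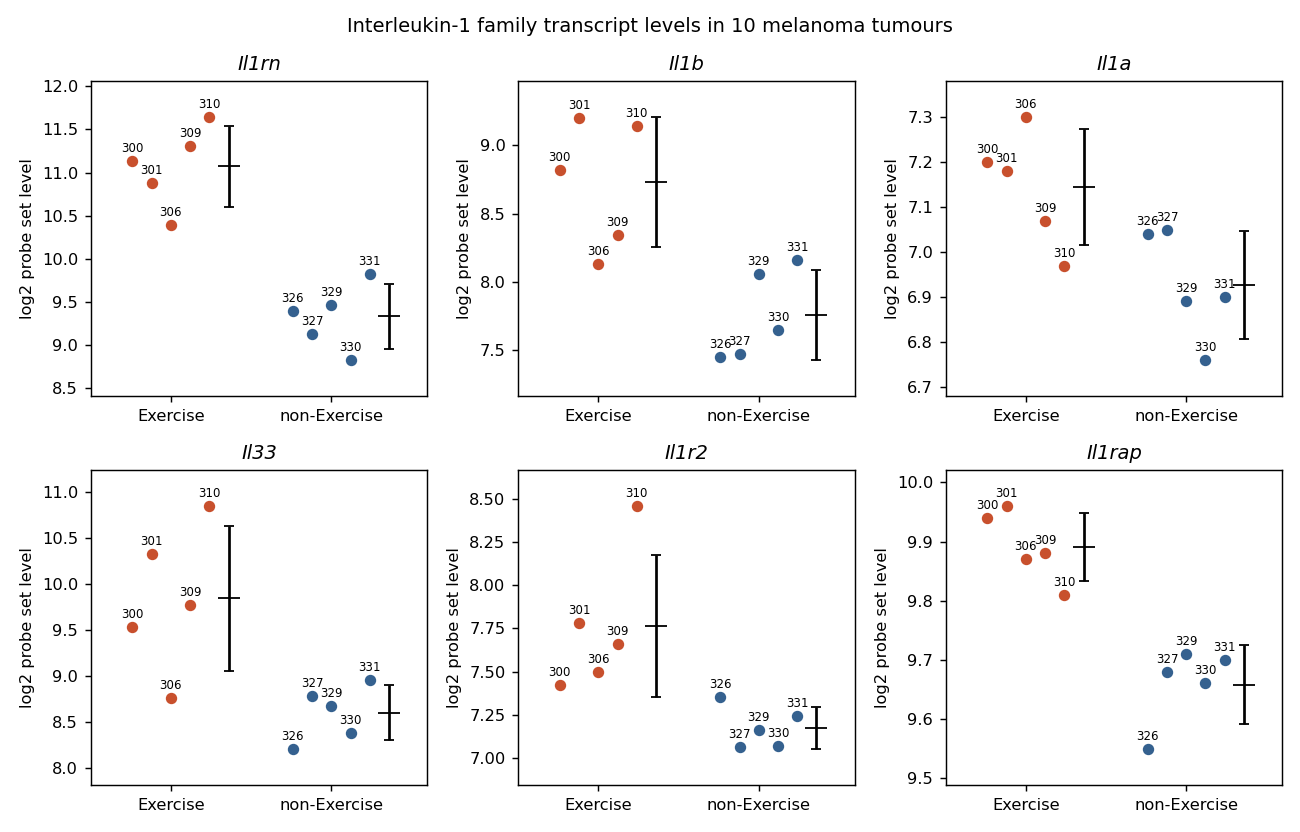
Log2 probe set level (vertical axis, a separate range for each gene) of 6 interleukin-1 family genes in 5 Exercise (left, orange) and 5 non-Exercise (right, blue) tumours. Each point is 1 array with its number, and the black mark and bar give the mean ± SD. Groups do not overlap for Il1rn, Il1r2 and Il1rap. Exercise array 306 lies in the non-Exercise range for Il1b and Il33, and array 310 does for Il1a.

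At an adjusted p under 0.05 in the limma fit across all genes, 5 of the 6 members passed as higher in Exercise tumours and none as lower. Over all 19938 genes the same test called 17.0%, 6.35% as higher and 10.6% as lower. Of the calls 37.4% were higher, or 23.4% with each array centred on its median. The groups did not overlap for 3 of the 6 members, all higher in Exercise tumours, where 12.1% of all genes had no overlap in either direction, 3.74% higher and 8.33% lower. The median log2 change of the members was 0.78, beside -0.02 over all genes. Since the members were picked with this comparison known, nothing is read from these counts. Of the 6 members, 4 passed as higher without the arrays with hepatocyte transcripts. In that setting 746 of all 19938 genes passed as higher and 1607 as lower.

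**Figure D2:**
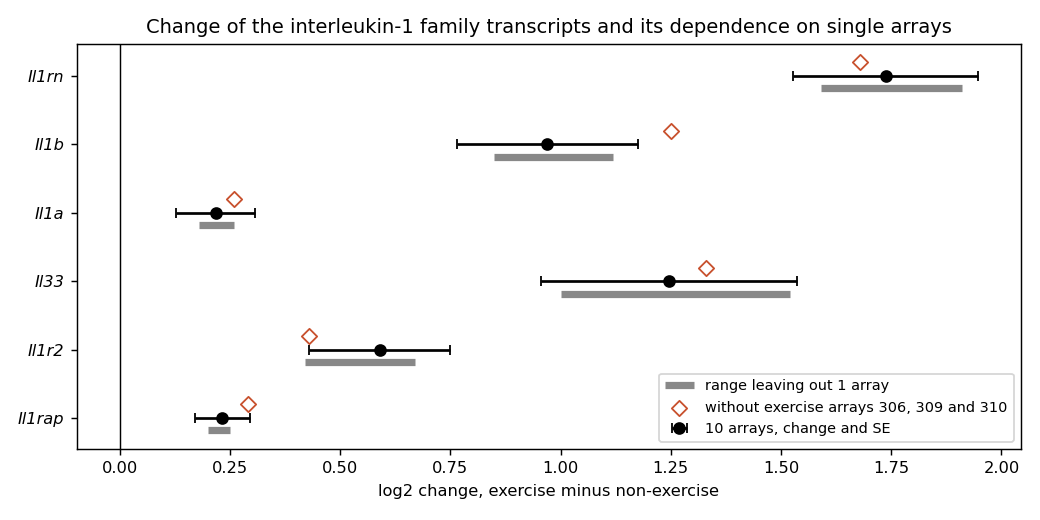
Log2 change, Exercise minus non-Exercise (horizontal axis), of 6 interleukin-1 family genes. Black points and bars give the change ± SE over 10 arrays, grey bars the range when 1 array is left out, and open diamonds the change without Exercise arrays 306, 309 and 310. All changes shown lie above 0, from 1.74 for Il1rn to 0.22 for Il1a.

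Across the Exercise tumours the members did not all follow the same order. Array 310 held the highest level of Il1rn, Il33 and Il1r2, but the lowest of Il1a and Il1rap. Array 306 held the lowest level of Il1rn, Il1b and Il33, and the highest of Il1a. Among non-Exercise tumours array 331 was the highest for Il1rn, Il1b and Il33.

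Markers of macrophages and of fibroblasts moved in the same direction as the members. Of 9 macrophage and monocyte markers measured, 7 passed as higher in Exercise tumours and none as lower, with a median log2 change of 0.91. The list's level, the median over its genes of the log2 level minus each gene's mean, was -0.19 to 1.09 in Exercise and -0.86 to -0.27 in non-Exercise tumours, highest in array 310 and lowest in array 330. Array 330 was also the lowest of all 10 for Il1rn and Il1a. Il1b, Il33 and Il1rap were lowest in array 326, and Il1r2 in array 327. Among Exercise arrays this list was lowest in array 301, while Il1rn, Il1b and Il33 were lowest in array 306. Of 8 fibroblast markers 5 passed as higher, and the list's level was -0.22 to 1.08 against -0.90 to -0.08. That count was 8 without array 301 and 3 without array 326 or 330. Leaving out the arrays with hepatocyte transcripts, 5 macrophage markers and 3 fibroblast markers passed as higher.

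Neutrophil markers differed less, with 3 of 10 higher and a list level of -0.13 to 0.39 in Exercise against -0.20 to 0.00 in non-Exercise tumours. They were dim, at percentiles 8.0 to 38.2 of the mean level of all genes. Macrophage and monocyte markers lay at 30.9 to 95.5 and fibroblast markers at 27.6 to 90.5, so the sizes of these changes are not directly comparable. Without the arrays with hepatocyte transcripts 5 of the 10 were higher. Exercise array 301, highest for Il1b, was also highest for this list, while its macrophage level was the lowest of the Exercise arrays, at -0.19. Of 8 mast cell and basophil markers 1 passed, as did 1 of 8 endothelial and 1 of 7 adipocyte markers. The mast cell count was 2 without array 300 or 301, and 0 when array 309, 326, 327, 330 or 331 was left out. Without array 301, 1 mast cell and basophil marker was lower. The adipocyte count was 0 without any single array other than 301, 306 and 329, and also without the arrays with hepatocyte transcripts, as was the mast cell count. The endothelial count was 3 without Exercise array 301 and 2 without array 306. None of the 10 keratinocyte markers passed in limma (0 at an unadjusted p under 0.05), and their level was -0.19 to 0.11 in Exercise and -0.11 to 0.12 in non-Exercise tumours. The part of any of these cell types in the members' differences was not tested.

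**Figure D3:**
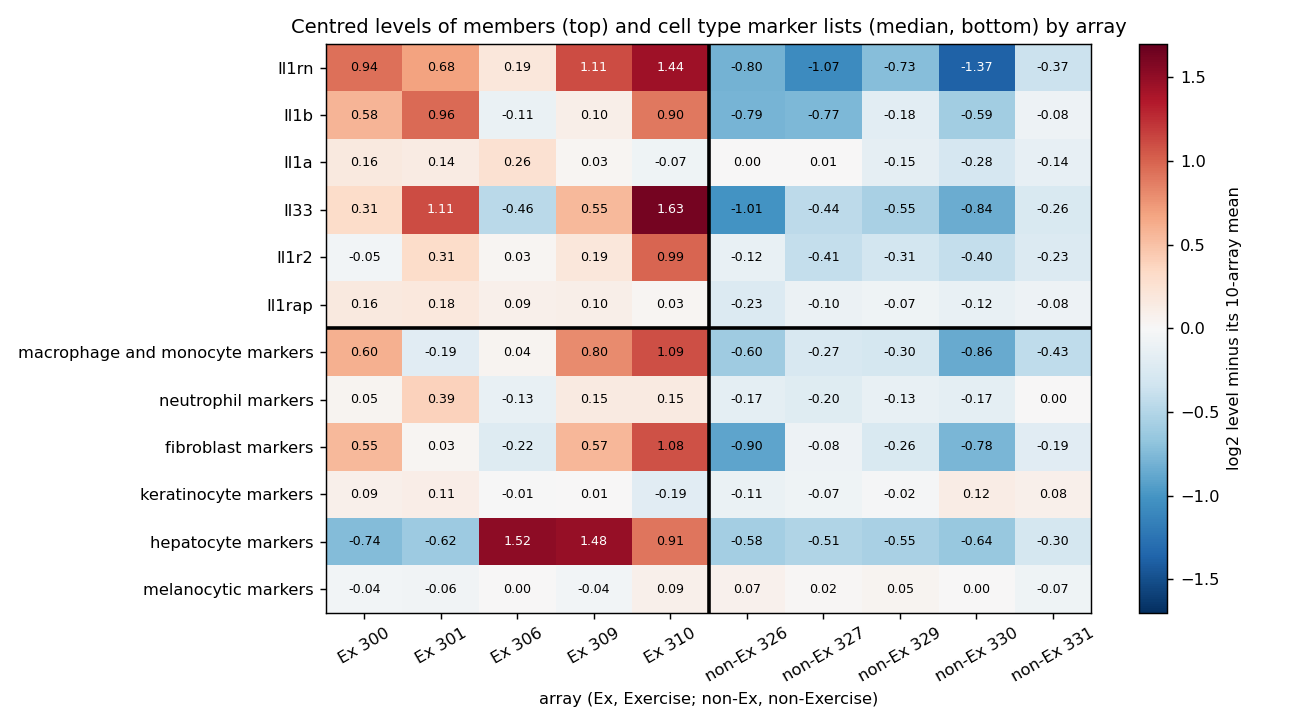
Log2 level minus its mean over the 10 arrays (colour and printed value) for 6 interleukin-1 family genes (above the line) and the median over 6 cell type marker lists (below it). Columns are 5 Exercise arrays (left) and 5 non-Exercise arrays (right). Exercise array 310 is high for Il1rn, Il33, Il1r2 and the macrophage and fibroblast lists, and the hepatocyte list is high in arrays 306, 309 and 310 alone.

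The genes whose 10-array profile lay closest to that of a member were found by the root mean square (RMS) difference of centred log2 levels, for the 4 members with a range over 1. Closest to Il1rn were Ccl2, a chemokine that attracts monocytes, at an RMS difference of 0.184, and the leukocyte receptor genes Lilrb4a (0.230) and Lilr4b (0.233), beside a median of 0.974 over all genes. Closest to Il1b were Thbs1, which encodes thrombospondin-1 (0.236), Chst11, a chondroitin sulfotransferase gene (0.253), and Sphk1, a sphingosine kinase gene (0.254), beside a median of 0.633. Closest to Il33 were the matrix metalloproteinase gene Mmp19 (0.264), the matrix proteoglycan gene Vcan (0.269) and the chemokine gene Ccl9 (0.282), beside a median of 0.850. Closest to Il1r2 were the serotonin receptor gene Htr2a (0.132), Serpinb9b (0.135) and Glipr2 (0.142), beside a median of 0.450. This closeness over 10 arrays includes the difference between the groups and is a description.

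Beyond the members, 55 of 57 listed genes of the pathway were measured, in 5 lists by role. Of these, 18 passed as higher and 1 as lower in Exercise tumours, 34.5% of those measured against 17.0% of all genes, and 36 did not pass. Their median log2 change was 0.26, beside -0.02 over all genes. The share called differed by list. It was 63.6% for inflammasome and ligand processing, 41.2% for interleukin-1-induced genes and 28.6% for other receptors and binding proteins. It was 21.4% for receptor-proximal signalling, near the 17.0% of all genes, and 0 for other ligands. When the arrays with hepatocyte transcripts were left out, 9 were higher and 2 lower, where 746 of all 19938 genes were higher and 1607 lower. The number of higher pathway genes was 9 without non-Exercise array 330 and 10 without array 327. Over all genes 857 and 964 were higher in these 2 cases. The 1 lower gene, Sigirr, is given with its dependence on single arrays beside its values. Irak4 and Chuk were not analysed here.

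Genes induced by interleukin-1 in many cell types held the largest differences. Of 17 measured, 7 rose, none fell and 10 did not pass, with a median log2 change of 0.37. Ccl2 had log2 levels of 10.46, 10.55, 9.90, 10.86 and 11.38 in the Exercise arrays, against 9.16, 9.08, 9.41, 8.58 and 9.63 in the non-Exercise arrays, with no overlap. It rose by 1.46 ± 0.23 (SE; limma adjusted p = 0.00101, higher in 5 of 5 Exercise arrays). Mmp13, a collagenase gene, was 9.30 ± 0.15 in Exercise and 8.45 ± 0.28 in non-Exercise tumours (SD, n = 5 each; limma adjusted p = 0.000519). Nfkbiz, an inducible co-activator of NF-kB target genes, rose by 0.54 ± 0.08 (limma adjusted p = 0.000789), also without overlap. Icam1, an adhesion molecule for leukocytes, rose by 0.54 ± 0.12 (limma adjusted p = 0.00955), above all non-Exercise arrays in 4 of 5 Exercise arrays. The chemokine gene Cxcl1 was 10.45 in Exercise and 10.41 in non-Exercise tumours and did not pass (limma adjusted p = 0.876), and it was named after its values were seen. Leaving out the arrays with hepatocyte transcripts, 6 of the 17 were higher, with Ccl2 at 1.33, Mmp13 at 0.77 and Nfkbiz at 0.38 still past the threshold and Icam1 at 0.24 not.

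The inflammasome and ligand processing list holds sensors and an adaptor beside genes whose products cut interleukin-1 precursors or open the cell for their release. Its calls were all higher. Of 11 measured, 7 rose, none fell and 4 did not pass. Casp1, the protease that matures interleukin-1 beta, was 8.36 ± 0.45 in Exercise and 7.68 ± 0.19 in non-Exercise tumours (SD, n = 5 each), and it rose by 0.69 ± 0.18 (limma adjusted p = 0.0166). Nlrp3, the sensor of the best-known inflammasome, rose by 0.42 ± 0.11 (limma adjusted p = 0.0234) without overlap of the groups, and Aim2, a sensor of cytosolic DNA, by 0.65 ± 0.17 (limma adjusted p = 0.0203). Capn2, a calpain subunit gene, rose by 0.28 ± 0.07 (limma adjusted p = 0.0110), and calpains cut interleukin-1 alpha. Pycard, the inflammasome adaptor, was 10.16 in both groups and was named after its values were seen. Without Exercise arrays 306, 309 and 310, Casp1 (0.22), Aim2 (0.35) and Nlrp3 (0.38) did not pass and Capn2 (0.33) did. Only arrays 300 and 301 were then left in the Exercise group, and the count of 7 dropped to 1. Leaving out array 309 or 331 gave 4, array 326 or 327 gave 3, and array 330 gave 2. Aim2 lost its call without array 326 (0.63) or 330 (0.60) and Nlrp3 without array 327 (0.36) or 330 (0.37), and Capn2 did with median centring (0.19).

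Among genes of receptor-proximal signalling, 3 of 14 rose, none fell and 11 did not pass, with a median log2 change of 0.01. That is 21.4% called, near the 17.0% of all genes. Myd88, the adaptor that interleukin-1 receptors share with Toll-like receptors, was 10.57 ± 0.30 in Exercise and 10.08 ± 0.09 in non-Exercise tumours (SD, n = 5 each), and it rose by 0.49 ± 0.12 (limma adjusted p = 0.01085). Irak3, a kinase-like protein that restrains this pathway in myeloid cells, rose by 0.75 ± 0.19 (limma adjusted p = 0.01475), and both genes were without overlap. Map3k8, a kinase upstream of ERK, rose by 0.42 ± 0.13 (limma adjusted p = 0.0477), but passed without only 2 of the 10 arrays in turn, Exercise arrays 301 and 306. Its change was between 0.31 and 0.44 in the other 8 cases, in which arrays 300, 309, 310, 326, 327, 329, 330 and 331 were each left out. The count was 1 without the arrays with hepatocyte transcripts, with Irak3 (0.57) past the threshold and Myd88 (0.25) and Map3k8 (0.18) not. In this list 1 gene was lower without non-Exercise array 331.

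Of the 7 other receptors and binding proteins of the family, 1 rose, 1 fell and 5 did not pass. Sigirr, an orphan receptor that dampens interleukin-1 signalling, had log2 levels of 9.58, 9.61, 9.87, 9.80 and 9.80 in the Exercise arrays, against 10.16, 9.92, 9.94, 9.95 and 9.96 in the non-Exercise arrays. It fell by 0.26 on the log2 scale, with an SE of 0.08 (limma adjusted p = 0.0341), and all 5 Exercise arrays lay below all non-Exercise arrays. The call did not hold when array 300 or 301 was left out (-0.22 in each case), nor array 326 (-0.21), nor array 327, 329 or 330 (-0.27 in each case). It held without Exercise arrays 306, 309 and 310 (-0.40). Il18bp, the secreted neutraliser of interleukin-18, rose by 0.77 ± 0.24 (limma adjusted p = 0.0411), and was high in arrays 306, 309 and 310. Its log2 level there was 10.66, 10.94 and 10.05, against 9.67 and 9.43 in Exercise arrays 300 and 301 and 9.05 to 9.83 in the non-Exercise arrays. It did not pass without those 3 arrays (0.17), nor when array 306 (0.65), 309 (0.58), 310 (0.80), 327 (0.76), 329 (0.76), 330 (0.77) or 331 (0.69) alone was left out. The list had 3 higher genes without array 301 and 2 without array 306.

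None of the 6 other ligands of the family passed in limma (0 at an unadjusted p under 0.05), and their median log2 change was -0.01. The smallest adjusted p was that of Il1f9, which encodes interleukin-36 gamma, at 7.93 ± 0.31 in Exercise and 7.67 ± 0.08 in non-Exercise tumours (SD, n = 5 each; limma adjusted p = 0.207). Il18, the ligand that Il18bp binds, was 8.97 in Exercise and 9.12 in non-Exercise tumours (limma adjusted p = 0.665), named after its values were seen. Without Exercise arrays 306, 309 and 310 Il18 was the 1 ligand of the 6 that passed, and it fell by 0.61 on the log2 scale (limma adjusted p = 0.00421), against a change of -0.14 with all arrays that did not pass. That fall rests on Exercise arrays 300 and 301 alone.

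**Figure D4:**
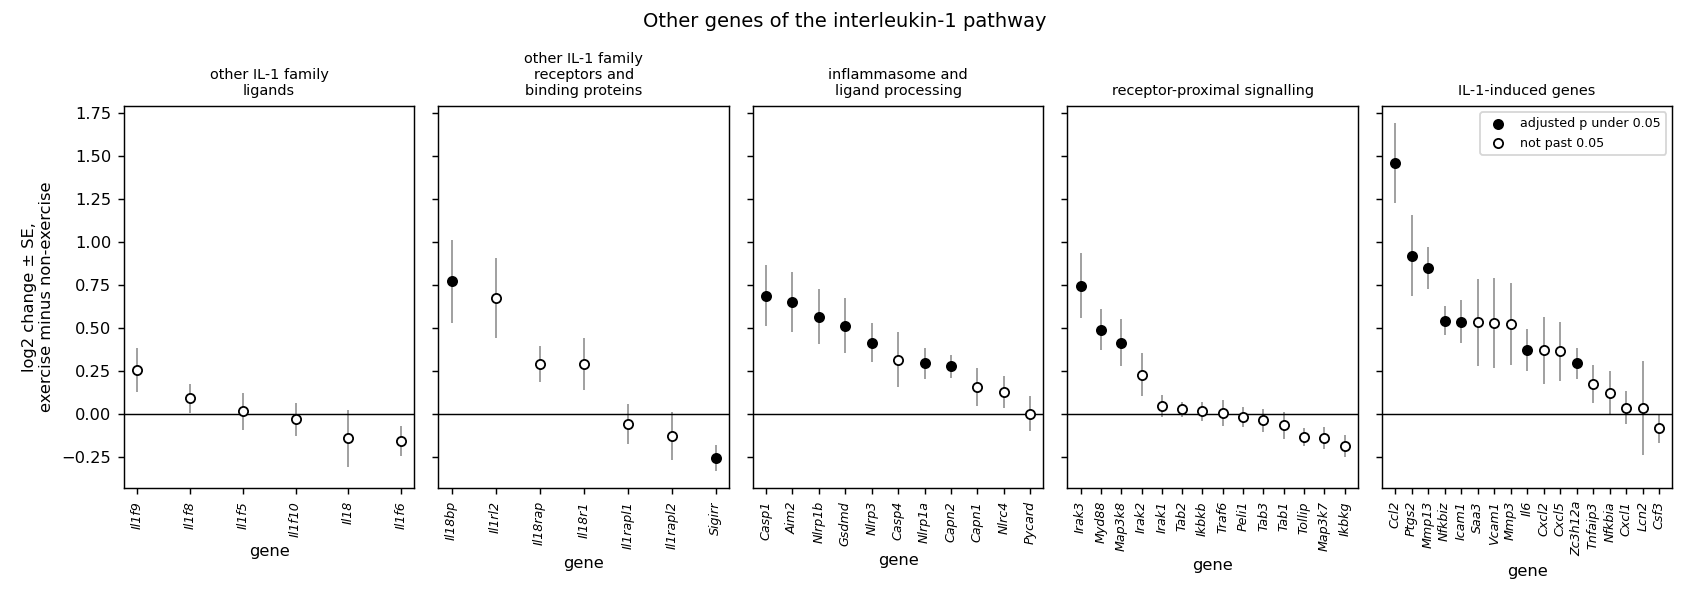
Log2 change ± SE, Exercise minus non-Exercise (vertical axis), of 55 pathway genes outside the members, in 5 panels by role. Filled points passed an adjusted p under 0.05 in the fit across all genes and open points did not. Filled points lie above 0 in each panel that has them, except Sigirr at -0.26, and Ccl2 at 1.46 is the highest.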

How the data were processed

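The authors deposited 1 table of 35556 probe sets by 10 arrays, taken as log2 values because they lie between 4.66 and 14.55. PLIER made the probe set values, per the submitters' processing notes. Its version, the base of the log, an added constant or a normalization between arrays were not stated in the sources used here. Because array medians differed by 0.126, over the limit of 0.1 set for this, quantile normalization was applied (limma 3.58.1, R 4.3.3). Of the probe sets, 21789 had 1 gene symbol, 1621 several and 12146 were not listed. Names came through Entrez identifiers of GRCm38.p6 (21698 matched), and 4 listed interleukin-36 genes were matched by their older symbols. The probe set with the highest mean stood for each of 999 genes with several.

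Exercise and non-Exercise were compared over 19938 genes by lmFit and a trended eBayes (two-sided), with Benjamini-Hochberg adjustment at 0.05. No filter on dim genes was applied, no array was dropped, and the pair of arrays with most identical values shared 1. Neither scan dates nor slides were used, so no batch was tested. The fit recovered 70.2% of log2 changes of 0.5 and 97.2% of changes of 1 in 5 simulations of a comparison of this size with 19938 genes. Each simulation changed 200 genes and drew independent normal noise for each gene at its own residual SD. It put no shift shared by many genes on any array, so these rates need not hold for the tumours. The members and gene lists were chosen with earlier results of these data known. Named genes are all members, up to 4 called genes with the smallest adjusted p per pathway list (or the first where none was called), the 3 genes closest to each member with a range over 1, and 6 check genes. Cxcl1, Cxcl2, Il1rl2, Pycard and Il18 were added after their values were seen. Promoter sequences are from RefSeq, found for all 6 members. Figures used Python 3.11.15 and matplotlib 3.10.9. Alternatives were the deposited table, median centring, a filter at percentile 25 of mean level, the mean of probe sets, eBayes without trend or robust, and leaving out arrays.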

Additional observations from a re-analysis of the deposited data

Results flagged for a closer look

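In 3 of 58 groups of 5 arrays checked, 1 array stood apart from the other 4 by more than Dixon's 95% critical value of 0.71, and chance alone flags about 1 in 20 groups. None of these was a member gene. Sigirr was 10.16 in non-Exercise array 326, with the next highest non-Exercise array at 9.96, and its log2 change was -0.21 without that array and did not pass (limma adjusted p = 0.102). Mmp13 was 9.04 in Exercise array 301, with the next lowest Exercise array at 9.33, and its change was 0.92 without it (limma adjusted p = 0.000261). Nfkbiz was 9.07 in non-Exercise array 330, with the next lowest at 9.23, and its change was 0.51 without it (limma adjusted p = 0.00324).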

How the results depend on the processing

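No paired analysis was possible because the groups share no array number. The log2 changes of all 6 members were above 0 under every alternative run. Il1rn and Il1b passed the threshold under all of them, and Il1a under none. Leaving out 1 array, the ranges were 1.59 to 1.91 for Il1rn, 0.85 to 1.12 for Il1b, 0.18 to 0.26 for Il1a, 1.0 to 1.52 for Il33, 0.42 to 0.67 for Il1r2 and 0.20 to 0.25 for Il1rap, with 4 or 5 members higher. Il1r2 did not pass without Exercise arrays 306, 309 and 310 (0.43), Il1rap did not with median centring (0.18), and Il33 did not with robust eBayes (1.25). The filter on dim genes removed Il1a and Il1r2. Of all genes 1266 were higher and 2118 lower, so 37.4% of calls were higher. With median centring 938 were higher and 3076 lower, or 23.4%. Without Exercise arrays 306, 309 and 310, 746 were higher, and leaving out 1 array gave 857 to 1528 higher and 1435 to 2333 lower. Of the pathway genes 18 were higher, or 9 without those 3 arrays (Cxcl2 and Il1rl2 gained) and 9 to 20 leaving out 1. Only 1 was lower, or 4 with median centring, 2 without dim genes or without those 3 arrays, and 0 to 2 leaving out 1. Of 287 further values for the 17 named pathway genes other than Cxcl2 and Il1rl2, 241 kept their call and direction and 36 kept only their direction. Another 1 gained a call (Il18 without those 3 arrays, -0.61), and 9 changed sign without a call. These 9 were Cxcl1 with median centring (-0.04) and leaving out 1 array (-0.01 to 0.10 in all), and Pycard leaving out 1 array (-0.08 to 0.08 in all). The cause was not tested. Signal over background was not available, so limits at dim genes such as Il1a and Il1r2 are not known.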
